A study of Mus musculus with 6 samples.

Results

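The Hippo pathway and the target genes of its coactivator YAP were examined in the livers of obese mice. The 10 genes were taken by symbol: the targets Ctgf, Cyr61, Ankrd1, Amotl2 and Axl, the coactivators Yap1 and Wwtr1, their DNA-binding partner Tead1, and the kinases Lats1 and Lats2. They are 10 of 18453 genes with a count in any library, and all 10 were among the 13431 genes that passed the filter on low counts. All 6 livers came from male Mettl14f/f mice, whose Mettl14 alleles are floxed, fed HFD from 8 weeks of age. After 10 weeks of HFD, 3 mice received AAV8-TBG-Cre (labelled METTL14 KO) and 3 received the control vector AAV8-TBG-GFP (labelled WT), and RNA was taken 8 weeks later. AAV8-TBG is a viral vector whose thyroxine-binding globulin promoter drives Cre or GFP in hepatocytes, so other liver cells keep intact Mettl14 alleles. Livers are called GFP1 to GFP3 and Cre1 to Cre3 by group and replicate number.

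The Hippo pathway is a kinase cascade. The kinases encoded by Stk3 and Stk4, with the scaffold Sav1, activate LATS1 and LATS2, which phosphorylate YAP and its paralog TAZ (encoded by Wwtr1) and thereby hold them in the cytoplasm. Unphosphorylated YAP and TAZ enter the nucleus, bind TEAD factors and raise transcription of their targets. In the liver the pathway is known for restraining organ size and for its part in the choice between hepatocyte and bile duct cell fate. Phosphorylation is not seen by RNA-seq, which measures only the transcripts of these genes.

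Among the 10 genes, 3 YAP targets were higher in AAV8-TBG-Cre livers: Ankrd1 (6.91-fold), Ctgf (2.35-fold) and Axl (1.98-fold). The transcript of the coactivator TAZ, Wwtr1, was lower (0.812-fold). The other 6, Cyr61, Amotl2, Yap1, Tead1, Lats1 and Lats2, were not called. Calls follow the threshold of the study, a change of 1.2-fold or more with an unadjusted p-value below 0.05, here in edgeR's quasi-likelihood test. At that threshold 2747 of the 13431 genes tested were called (20.5%), 1618 of them higher (12.0%) and 1129 lower (8.41%), against 4 of the 10 genes here, 3 higher and 1 lower. The 10 genes were chosen with earlier results of these data known, so a count above these shares is not independent support. With a Benjamini-Hochberg adjusted p-value under 0.05, which 125 genes reached (0.931%), edgeR called 0 of the 10, although 5 had an unadjusted p-value under 0.05. DESeq2 called 2 of the 10, Ankrd1 and Axl, by adjusted p-value, beside 1157 of the 18419 genes in its fit. The limma fits on FPKM called 0 of the 10, beside 9 to 27 of all genes. The median log2 fold change was 0.20 over the 10 genes and -0.0065 over all genes tested.

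Total expected counts, the fragments assigned to genes, lay between 20356440 and 21010508 per library. Levels are given as CPM, counts relative to the library total after TMM scaling. Mettl14 was at 6.30, 6.43 and 5.81 CPM in GFP1 to GFP3 and at 4.96, 5.38 and 4.86 CPM in Cre1 to Cre3. By CPM it was lower in every Cre liver, but the difference did not pass the test (log2 fold change -0.29 ± 0.15 SE, edgeR adjusted p = 0.34). In FPKM, which is also scaled by transcript length, Mettl14 was at 2.31, 2.31 and 2.01 in GFP1 to GFP3. In Cre1 to Cre3 it was at 1.92, 2.40 and 1.82 FPKM, so the groups overlapped and Cre2 was highest. On log2(FPKM + 1) the difference was -0.079 (limma p-value of 0.53). Gene counts cover the whole transcript and all cells of the liver, so RNA of cells without Cre, and of any exons outside the floxed part, is included. Library names take a short form (GFP1, GFP2, Cre1) or a long form (GFP3, Cre2, Cre3) of unknown origin. Ratios within each form are therefore given below for Ankrd1, Axl, Ctgf, Cyr61, Wwtr1, Amot and Amotl1. These ratios set Cre1 alone against GFP1 and GFP2 (short), or Cre2 and Cre3 against GFP3 alone (long). Bulk RNA cannot tell a change in the number of cells of a type from a change in RNA per cell.

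The sequence just upstream of the start is shown for the called genes that had a RefSeq promoter entry and for Cyr61, because TEAD factors recognise GGAATG, set in capitals. Read on the opposite strand, the motif is CATTCC, also in capitals. Sequences are from RefSeq, assembly GRCm38.p6, read 5′ to 3′ on the minus strand that carries each gene, and leave out bases inside the annotated bounds of the gene.
Ankrd1, chr19:36119845-36120094: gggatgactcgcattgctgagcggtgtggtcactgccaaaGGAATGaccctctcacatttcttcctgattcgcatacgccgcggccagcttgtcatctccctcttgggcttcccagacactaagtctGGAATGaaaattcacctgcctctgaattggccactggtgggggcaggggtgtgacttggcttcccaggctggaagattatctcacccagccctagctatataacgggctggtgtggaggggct
Cyr61, chr3:145649986-145650235: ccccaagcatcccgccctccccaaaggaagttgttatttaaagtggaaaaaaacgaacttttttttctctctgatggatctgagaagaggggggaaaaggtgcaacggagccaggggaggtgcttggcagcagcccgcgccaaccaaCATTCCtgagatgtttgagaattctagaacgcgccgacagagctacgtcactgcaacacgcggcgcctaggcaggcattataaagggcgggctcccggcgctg
Axl, chr7:25788925-25788983: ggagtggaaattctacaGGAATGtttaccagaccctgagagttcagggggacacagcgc
Wwtr1, chr3:57575911-57576160: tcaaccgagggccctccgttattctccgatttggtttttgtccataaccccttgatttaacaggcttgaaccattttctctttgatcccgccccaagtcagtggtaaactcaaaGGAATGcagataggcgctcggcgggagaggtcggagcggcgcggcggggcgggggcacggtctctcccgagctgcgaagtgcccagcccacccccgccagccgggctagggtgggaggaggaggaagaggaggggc

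In the 250 bases before the start, Ankrd1 held the motif at 2 places, 210 and 123 bases upstream, and Cyr61 at 1 place, 103 bases upstream. The motif of Axl began 233 bases before the start and that of Wwtr1 136 bases before the upstream one of its 2 starts. On either strand it was found for 6 of the 8 genes with an entry, since Amotl2 (65 bases upstream) and Yap1 (141 bases upstream) carried it and Lats1 and Lats2 did not. Among all 32851 promoters of that length, 12.6% held it, and 14.4% of 27025 genes had it in at least 1 promoter. The AP-1 motif TGANTCA, often found beside TEAD motifs, was in 0 of the 10 promoters of these 8 genes and in 6.75% of all promoters. The motif lay upstream of called and uncalled genes, and a match of letters is not a bound site.

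Ankrd1, which encodes an ankyrin repeat protein of the nucleus and the sarcomere and lies at chr19:36111965-36119844, had the largest fold change of the 10 and the lowest level. The expected counts were 7, 7 and 2 in GFP1 to GFP3 and 19, 79 and 33 in Cre1 to Cre3. These correspond to 0.356, 0.357 and 0.105 CPM against 0.907, 3.25 and 1.59 CPM. Every Cre liver was above every GFP liver, and Cre2 was the highest. Ankrd1 passed the filter on low counts only through the Cre livers, so its being tested was tied to its being high there. The fitted difference was 2.79 ± 0.62 on the log2 scale (SE), with an edgeR p-value of 0.0023 and an adjusted p-value of 0.072. An exact two-sided permutation test of the mean log2 CPM gave p = 0.1, the smallest that 3 against 3 livers allow. Within library name forms the log2 ratio of mean CPM was 1.35 among short names and 4.53 among long names, and without Cre2 the fitted log2 fold change was 2.16.

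Axl, a receptor tyrosine kinase that binds the ligand Gas6, was at 27.0, 23.2 and 22.0 CPM in GFP1 to GFP3 and at 32.6, 68.7 and 41.4 CPM in Cre1 to Cre3. The groups did not overlap, and Cre2 again stood highest. Its log2 fold change was 0.98 ± 0.26 (SE), with an edgeR p-value of 0.0058 and an adjusted p-value of 0.097 (exact permutation p = 0.1). The log2 ratio was 0.38 among short names and 1.32 among long names. Leaving out Cre2 brought the log2 fold change to 0.61, and the gene was called in that fit and in each other fit that left out 1 liver.

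Ctgf and Cyr61 encode related secreted matricellular proteins of the CCN family, now also named Ccn2 and Ccn1, and both are widely used as readouts of YAP. Ctgf was at 8.59, 3.78 and 9.74 CPM in GFP1 to GFP3 and at 8.88, 26.5 and 16.6 CPM in Cre1 to Cre3. Cre2 and Cre3 were above all controls, while Cre1 lay below GFP3, so the groups overlapped. Ctgf had a log2 fold change of 1.23 ± 0.45 (SE), with an edgeR p-value of 0.026 and an adjusted p-value of 0.18 (exact permutation p = 0.2). The difference was smaller and not called without Cre2 (0.79, edgeR p-value of 0.11) and without GFP2 (0.92, p-value of 0.068). Without Cre3 it was as large (1.26), with an edgeR p-value of 0.051. The ratio within name forms was 0.52 (short) and 1.14 (long) on the log2 scale.

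Cyr61 was at 9.45, 11.1 and 27.1 CPM in GFP1 to GFP3 and at 8.11, 31.1 and 20.5 CPM in Cre1 to Cre3. The 3 livers with long library names were above the 3 with short names, and the groups overlapped. The log2 fold change of 0.33 ± 0.53 (SE) did not pass the test (edgeR adjusted p = 0.77). With the name form as a covariate it was -0.19, and without Cre2 it was -0.15. Within name forms the log2 ratio of mean CPM was -0.34 (short) and -0.070 (long). The ratio of Ctgf to Cyr61 in FPKM, a level per transcript length, was 0.760, 0.286 and 0.301 in GFP1 to GFP3 and 0.914, 0.712 and 0.675 in Cre1 to Cre3. The ranges overlapped (mean log2 difference 0.92, exact two-sided permutation p = 0.3), so a difference in response between the pair was not shown.

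Amotl2, an angiomotin family protein that binds YAP at cell junctions and is itself a YAP target, had lower values in the Cre livers. It was at 48.8, 49.9 and 48.8 CPM in GFP1 to GFP3 and at 42.2, 43.3 and 41.6 CPM in Cre1 to Cre3, with an SD of 0.66 and 0.84 CPM in the groups (n = 3). The groups did not overlap. Its log2 fold change of -0.22 ± 0.09 (SE) had an edgeR p-value of 0.037 (adjusted p = 0.21), but the 0.861-fold level was short of the 1.2-fold threshold, so Amotl2 was not called. On log2(FPKM + 1) the difference was -0.043, or -0.155 relative to the median of all genes, which shifted by 0.11 on that scale.

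**Figure D1:**
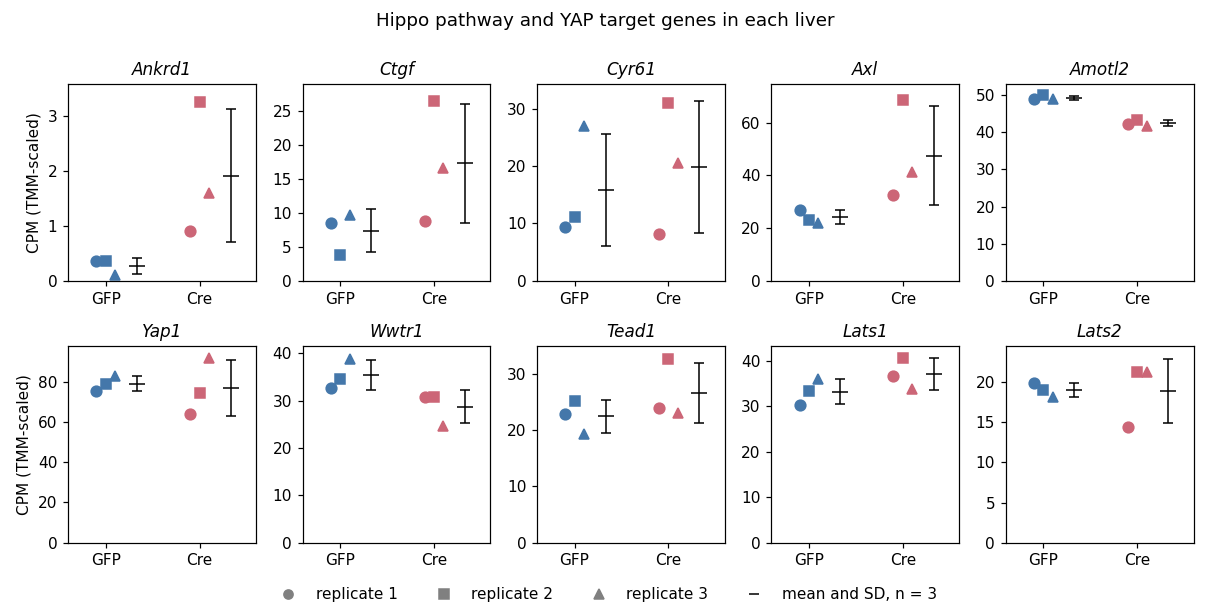
CPM of each of the 10 genes (vertical axes, each from 0) in the 3 AAV8-TBG-GFP and the 3 AAV8-TBG-Cre livers. Each symbol is a liver, with its replicate number given by shape, and the bars are the mean and SD (n = 3). The Cre livers of Ankrd1 and Axl all lie above the GFP livers, those of Amotl2 and Wwtr1 all lie below, and the groups of the other 6 genes overlap.

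Of the coactivators, Wwtr1 (chr3:57455644-57575910) was at 32.7, 34.6 and 38.9 CPM in GFP1 to GFP3 and at 30.8, 30.7 and 24.7 CPM in Cre1 to Cre3. No Cre liver reached the lowest GFP liver, although Cre1 and Cre2 lay close to it. The log2 fold change was -0.30 ± 0.12 (SE), with an edgeR p-value of 0.044 and an adjusted p-value of 0.23 (exact permutation p = 0.1). It varied with the scaling. On log2(FPKM + 1) Wwtr1 differed by -0.12, or -0.23 relative to the shifted median, with a limma p-value of 0.44. Upper quartile normalization gave -0.23 (edgeR p-value of 0.11). DESeq2 gave a difference as large, -0.31, with a p-value of 0.054. The call was also lost without GFP3 (-0.24, edgeR p-value of 0.12) and without Cre3 (-0.21, p-value of 0.13), and without GFP2 at a difference as large (-0.32, p-value of 0.073). For Wwtr1 the log2 ratio of mean CPM was -0.13 among short names and -0.49 among long names.

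Yap1 (chr9:7931999-8004638) was at 75.5, 79.1 and 83.2 CPM in GFP1 to GFP3 and at 64.2, 74.8 and 91.9 CPM in Cre1 to Cre3. The Cre livers spanned the whole range of the controls. The difference did not pass the test (log2 fold change -0.043 ± 0.14 SE, edgeR adjusted p = 0.89), and its sign turned under FPKM (0.11) and upper quartile scaling (0.018). In FPKM, Yap1 stood at 2.64, 2.60 and 2.45 times Wwtr1 in GFP1 to GFP3 and at 2.38, 2.79 and 4.25 times in Cre1 to Cre3. The 2 sets of ratios overlapped (exact two-sided permutation p = 0.5).

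Tead1, the DNA-binding partner among the 10, was at 22.9, 25.2 and 19.4 CPM in GFP1 to GFP3 and at 23.9, 32.7 and 23.1 CPM in Cre1 to Cre3. Only Cre2 exceeded the highest control. Its log2 fold change was 0.24 ± 0.17 (SE, edgeR adjusted p = 0.45).

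The kinase Lats1 was at 30.3, 33.4 and 36.0 CPM in GFP1 to GFP3 and at 36.6, 40.7 and 33.7 CPM in Cre1 to Cre3, a log2 difference of 0.16 ± 0.11 (SE, edgeR adjusted p = 0.48). Lats2, its paralog and itself a known YAP target, was at 19.9, 19.1 and 18.1 CPM in the controls. In Cre1 to Cre3 it was at 14.4, 21.2 and 21.3 CPM. The controls lay between Cre1 and the other 2 Cre livers, and the log2 difference was -0.0042 ± 0.16 (SE, edgeR adjusted p = 0.99).

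By FPKM, the order of mean levels in the GFP livers was Yap1 (17.2 to 18.0), Amotl2 (10.5 to 11.2), Cyr61 (4.50 to 12.2), Wwtr1 (6.54 to 7.36), Axl (4.00 to 5.10), Lats1 (3.99 to 4.48), Lats2 (3.22 to 3.72), Ctgf (1.48 to 3.66), Tead1 (1.82 to 2.47) and Ankrd1 (0.05 to 0.19). Neighbours in this order whose ranges overlapped were Amotl2 and Cyr61, Cyr61 and Wwtr1, Axl and Lats1, Lats2 and Ctgf, and Ctgf and Tead1. In the Cre livers, Axl (6.67 to 16.0) and Ctgf (3.73 to 12.8) stood before Wwtr1 (5.06 to 7.49) by mean, but all neighbours overlapped there except Tead1 (2.34 to 3.93) and Ankrd1 (0.52 to 2.17). Yap1 remained first and Ankrd1 last in both groups.

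Beyond the 10 genes, a list of 32 upstream and core Hippo genes was examined, all of which passed the filter. Of these 8 were called higher and 0 lower, beside 12.0% and 8.41% of all genes. The list was chosen with earlier results of these data known, so this comparison is not independent support. None of the 32 had a negative fold change with an unadjusted edgeR p-value under 0.05, and DESeq2 and limma also called 0 lower. The list's median log2 fold change was 0.07, and 24 genes were not called, with log2 fold changes between -0.25 and 0.27. Genes of the central kinase cassette, Stk3, Stk4, Sav1, Mob1a and Mob1b, were among those not called. Without Cre2, 5 genes of the list were called in place of 8.

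Angiomotins and LIM-domain adaptors made up 4 of the 8. Amot, which tethers YAP at junctions and the actin cytoskeleton, was at 7.27, 6.12 and 7.17 CPM in GFP1 to GFP3 and at 13.2, 15.3 and 13.8 CPM in Cre1 to Cre3. All 3 Cre livers stood well above the controls at similar levels, and this was the 1 gene of the list with an adjusted p-value under 0.05 (log2 fold change 1.04 ± 0.14 SE, edgeR adjusted p = 0.033). The adjusted p-value was above 0.05 with the replicate block (0.109), in limma on FPKM (0.070 to 0.147) and when any liver but Cre1 was left out (0.076 to 0.137), while Amot stayed called at the study's threshold in each. DESeq2 put Amot, Ajuba and Map4k4 below 0.05, beside 1157 of the 18419 genes in its fit. The ratio was 0.98 among short names and 1.02 among long names. Amotl1 of the same family was called (log2 fold change 0.64 ± 0.26 SE), but its groups overlapped and the log2 ratio among short names was -0.070.

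Ajuba, a LIM-domain protein that binds LATS kinases at junctions, was at 7.52, 5.41 and 9.32 CPM in GFP1 to GFP3 and at 13.4, 28.9 and 31.5 CPM in Cre1 to Cre3. The groups did not overlap, and the log2 fold change was 1.73 ± 0.34 (SE, edgeR adjusted p = 0.060). Its relative Wtip had a log2 fold change of 0.80 ± 0.27 (SE), and the third of the family, Limd1, one of 0.035 ± 0.11 that did not pass the test.

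The other 4 were Map4k4, a kinase that can phosphorylate LATS proteins, with a log2 fold change of 1.25 ± 0.37 (SE), Frmd6, a FERM-domain protein upstream of the cascade (0.70 ± 0.21), Csnk1e, a casein kinase that acts on YAP after LATS (0.73 ± 0.22), and Rassf1, a scaffold of the upstream kinases (0.57 ± 0.23). Their edgeR adjusted p-values lay between 0.125 and 0.21. The groups of Rassf1 overlapped, and those of the other 3 did not. Map4k4 had the widest spread of them, at 9.15, 7.35 and 10.1 CPM in the controls and 10.6, 32.6 and 19.8 CPM in Cre1 to Cre3. Cre1 was near the controls and Cre2 was highest.

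Of the 7 other TEAD and VGLL genes, 4 passed the filter and 1 was called. Tead2 was at 0.915, 0.867 and 0.890 CPM in GFP1 to GFP3 and at 2.24, 3.86 and 2.31 CPM in Cre1 to Cre3. The groups were well apart, with a log2 fold change of 1.65 ± 0.31 (SE, edgeR adjusted p = 0.058). The log2 fold changes of Tead4 (0.94 ± 0.57 SE), Tead3 (0.030 ± 0.11) and Vgll4 (0.23 ± 0.14) did not pass the test. Vgll1 and Vgll2, cofactors that compete with YAP for TEAD, had no count in any library, and Vgll3 had at most 10.

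The remaining list, 16 further genes of a YAP/TAZ target signature, had 15 genes tested. There were 8 called higher and 0 lower, again beside 12.0% and 8.41% of all genes, and the median log2 fold change was 0.37. This list too was chosen with earlier results of these data known, with the same limit. Dock5 was the 1 gene with a negative difference at an unadjusted edgeR p-value under 0.05 (log2 fold change -0.26), just short of a 1.2-fold change, and DESeq2 called 1 lower and limma 0. The 7 genes not called lay between -0.31 and 0.19 and held the targets Asap1, F3, Igfbp3, Gadd45a, Nt5e, Dock5 and Nuak2.

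Tgfb2, a ligand of the TGF-β family, was at 0.864, 0.459 and 0.576 CPM in GFP1 to GFP3 and at 2.10, 4.64 and 2.55 CPM in Cre1 to Cre3. Its log2 fold change was 2.28 ± 0.42 (SE, edgeR adjusted p = 0.055). Myof, a membrane protein of the ferlin family, was at 4.17, 3.52 and 4.35 CPM in the controls and at 8.64, 21.0 and 9.58 CPM in Cre1 to Cre3. Ptpn14, a phosphatase that binds YAP, was at 3.00, 3.01 and 2.57 CPM in the controls and at 6.63, 13.4 and 5.68 CPM in Cre1 to Cre3. In both, all Cre livers were above all controls and Cre2 was highest, with log2 fold changes of 1.71 ± 0.35 and 1.59 ± 0.34 (SE). Fjx1 (2.73 ± 0.73) was at 0.153, 0.306 and 0.209 CPM in the controls and at 0.620, 3.00 and 0.866 CPM in Cre1 to Cre3. Without Cre2 its log2 fold change was 1.71, below the 1.86 of Tgfb2. The extracellular matrix protein gene Ccdc80 (1.19 ± 0.36), the guanine nucleotide exchange factor gene Arhgef17 (0.98 ± 0.36), the RNA-binding protein gene Rbms3 (0.96 ± 0.29) and Crim1 (0.37 ± 0.12), which encodes a membrane protein that binds bone morphogenetic proteins, made up the rest. Arhgef17 and Crim1 were no longer called without Cre2, with edgeR p-values of 0.10 and 0.061.

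**Figure D2:**
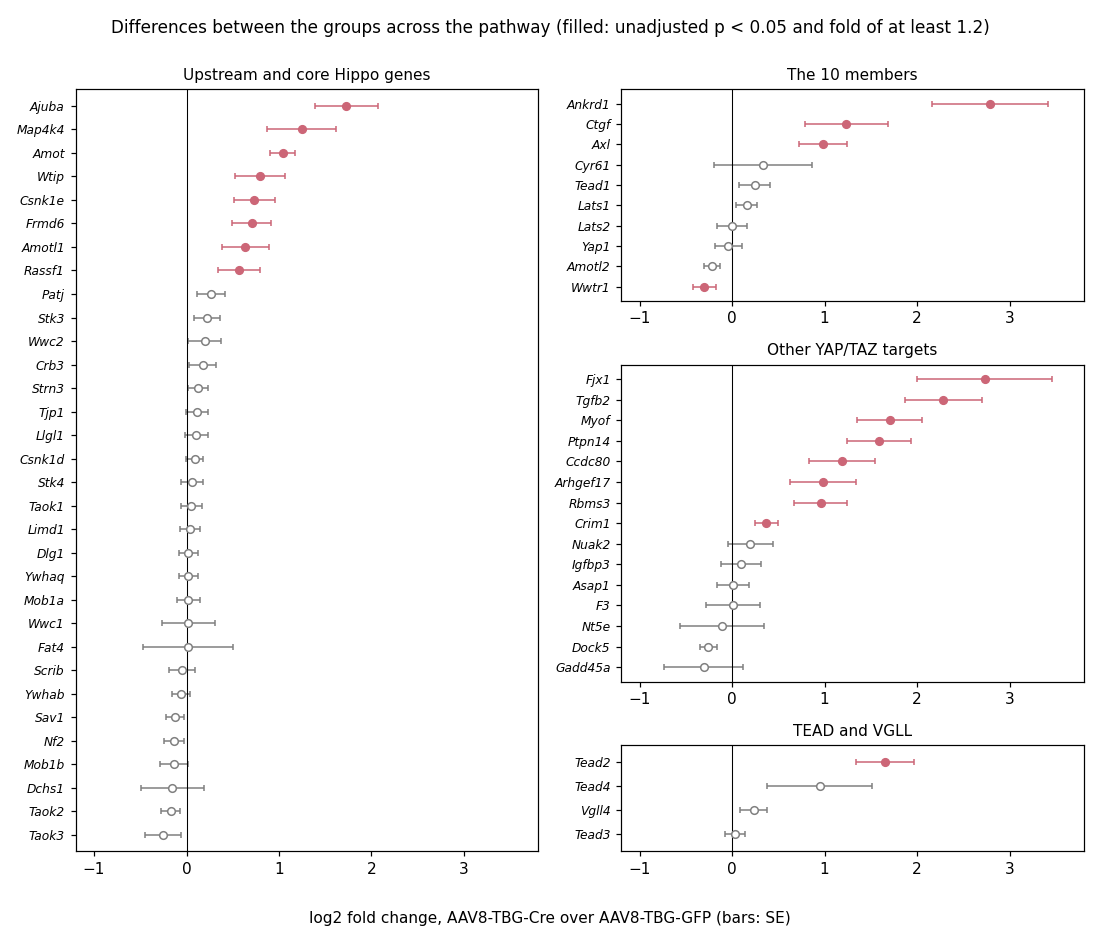
Log2 fold change of AAV8-TBG-Cre over AAV8-TBG-GFP (horizontal axis) with its SE for the 10 genes and the 3 other lists, 1 row per tested gene. Filled points passed the threshold of 1.2-fold and an unadjusted edgeR p-value below 0.05: 3 higher and 1 lower of the 10, 8 of 32 upstream and core genes, 8 of 15 further targets and 1 of 4 TEAD and VGLL genes.

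The differences were unequal across the Cre livers. Of the 17 other pathway genes called higher, 15 were highest in Cre2 and 2 in Cre3, and in 15 the groups did not overlap. These 17 were selected as higher in the Cre livers, which favours both counts. The same counts over all genes called higher were not taken. Cre2 also had the largest value on the first principal component of log2 CPM over all genes tested (56.9, against 14.1 in Cre1 and 27.5 in Cre3). Among the 10 genes, 6 were highest in Cre2, 2 in Cre3, 1 in GFP2 and 1 in GFP3. Groups did not overlap in 4 of the 10, beside 27.0% of all genes tested. Cre1, the only Cre liver with a short library name, was the one nearest to the controls in Ankrd1, Axl, Ctgf, Map4k4 and Ajuba.

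**Figure D3:**
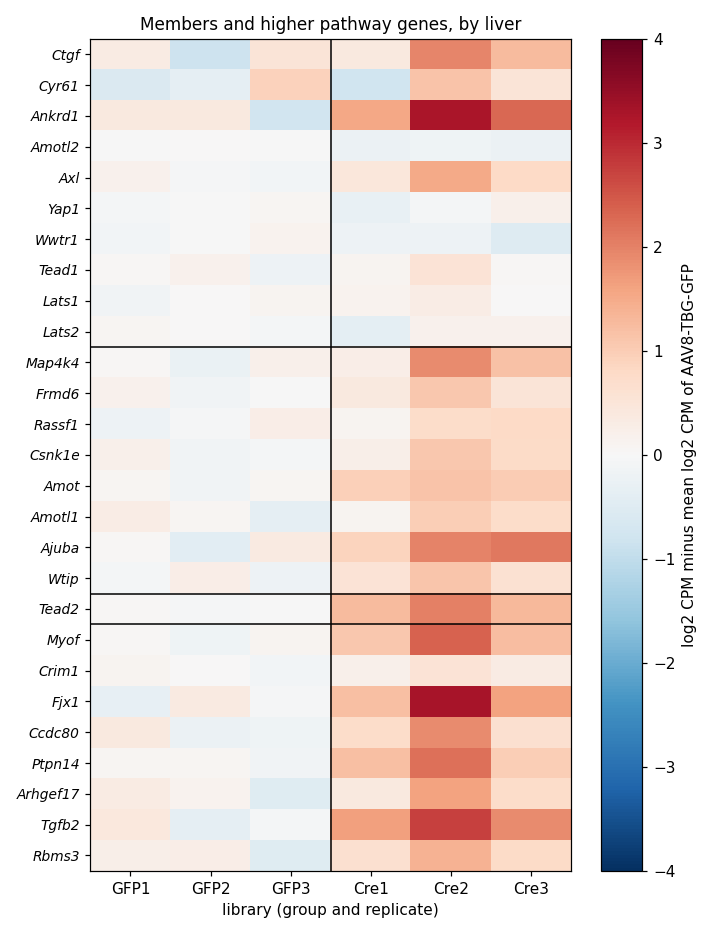
Log2 CPM of each liver (columns) minus the mean log2 CPM of the 3 AAV8-TBG-GFP livers, for the 10 genes (top block) and the 17 other pathway genes called higher (lower blocks: upstream and core genes, Tead2, further targets). Red is above and blue below the control mean, and Cre2 holds the deepest red in 15 of the 17 lower rows.

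Summed markers of cholangiocytes, of stellate cells and fibroblasts, and of macrophages were higher in every Cre liver than in every control. The summed CPM of 8 cholangiocyte markers was 35.6 to 46.0 in the GFP livers and 68.1, 131 and 92.9 in Cre1 to Cre3. All 8 were called higher. Stellate cell and fibroblast markers summed to 227 to 346 CPM in the controls and to 423, 893 and 448 CPM in Cre1 to Cre3, with 4 of 9 called higher. The separation of this sum depended on Col1a1 and Col3a1. A sum of the other 7 markers was chosen after the values were seen. It was 246, 238 and 162 CPM in GFP1 to GFP3 and 205, 399 and 241 CPM in Cre1 to Cre3, so the groups overlapped. Of these 7, Pdgfrb and Lum were still called higher without overlap of the groups (log2 fold changes of 1.04 and 1.74), while Dcn (0.38) was not called. The stellate cell markers Lrat and Reln had log2 fold changes of -0.25 and -0.10, Des one of 0.13 and Acta2 one of -0.37, and none of these passed the test. Macrophage and Kupffer cell markers summed to 172 to 199 CPM in the controls and 242 to 327 CPM in the Cre livers, with 5 of 8 called higher. Mesothelial markers stayed at or below 5.18 CPM in sum, with 1 of 3 tested called higher and Muc16 without a value.

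Endothelial markers (130 to 204 CPM against 132 to 158 CPM, 1 of 8 called lower) and hepatocyte markers (96130 to 117172 CPM against 82647 to 103602 CPM, 1 of 9 called higher and 1 lower) overlapped between the groups. The hepatocyte sum was lowest in Cre2, the liver in which the cholangiocyte, fibroblast, macrophage and mesothelial sums and most YAP targets were highest. Alb, which was not called, made up 54610 of the 82647 CPM in Cre2, so the hepatocyte sum mostly follows that gene. The called hepatocyte markers were Ttr (lower) and Cps1 (higher). YAP target genes are known to be expressed in bile duct cells and fibroblasts as well as in hepatocytes, and the part of these cell types in the differences above was not tested.

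**Figure D4:**
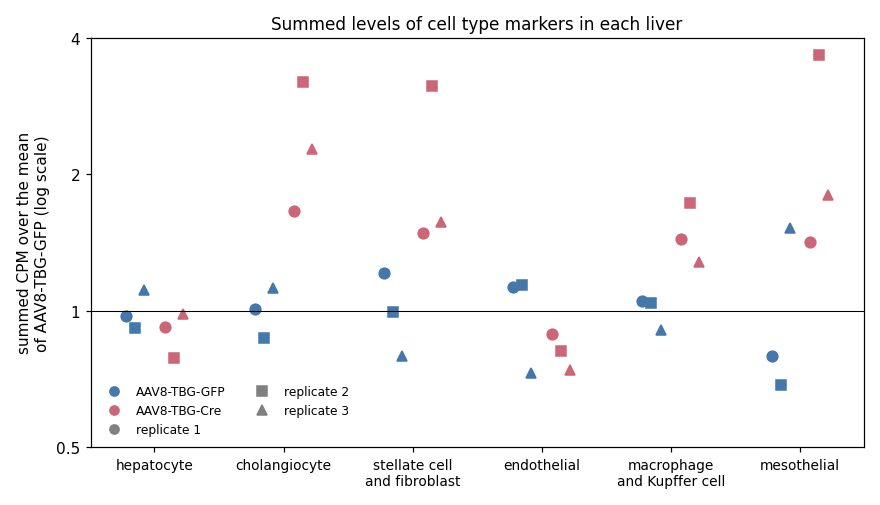
Summed CPM of 6 lists of cell type markers in each liver, divided by the mean of the 3 AAV8-TBG-GFP livers (log axis). Symbols are livers, with the replicate given by shape and the group by colour. Cre2 reached 3.20 times the control mean for cholangiocyte and 3.13 times for stellate cell and fibroblast markers, and 0.785 times for hepatocyte markers.

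The deposited transcript counts allowed the isoforms to be followed. Ctgf, Cyr61, Ankrd1, Amotl2 and Lats1 had a single transcript in the files. Yap1 had 2, of 4200 and 4152 bases, and the longer took 61.3%, 76.7% and 43.4% of the expected counts in GFP1 to GFP3 and 50.9%, 31.4% and 55.8% in Cre1 to Cre3. The shares overlapped between groups (60.4% ± 16.7 against 46.0% ± 12.9, SD, n = 3, exact two-sided permutation p = 0.4). Axl had 3 transcripts, and the one of 5084 bases ranged from 47.9% to 91.3% in the controls and from 18.7% to 48.2% in the Cre livers (66.9% ± 22.2 against 37.3% ± 16.1, SD, n = 3, exact permutation p = 0.2).

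Tead1 also had 3 transcripts. The one of 9962 bases took 6.89%, 12.5% and 0% of its counts in GFP1 to GFP3 and 23.6%, 15.7% and 12.5% in Cre1 to Cre3, so that the groups touched at 12.5% (6.46% ± 6.25 against 17.3% ± 5.71, SD, n = 3, exact permutation p = 0.1, the smallest possible). The minor Lats2 transcript of 913 bases took at most 1.18% of the gene's counts in any liver. Wwtr1 was carried by its transcript of 4767 bases, with 88.0% to 100% of the counts. Expected counts divide fragments between near-identical transcripts by estimation, so these shares carry an error beyond counting that the files do not state.

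**Figure D5:**
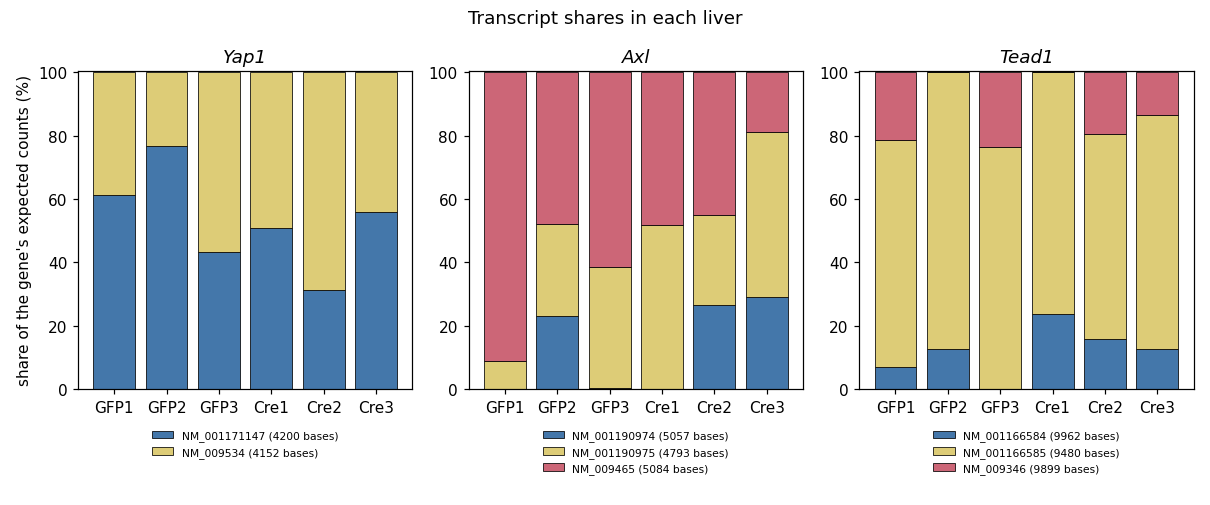
Share of the expected counts of Yap1, Axl and Tead1 (vertical axis, %) assigned to each RefSeq transcript in each liver, with bars adding up to the gene. The longer Yap1 transcript ranges from 31.4% in Cre2 to 76.7% in GFP2, and no share separates the groups by a wide margin.

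For each of the 10 genes, the single most alike gene was sought among 8531 others with a mean log2 CPM of at least 3, by Pearson's r of log2 CPM over the 6 livers. The most alike genes were Gpx3 for Ankrd1 (r = 0.992), Adam17 for Axl (r = 0.998), Cyp3a11 for Ctgf (r = 0.995), Slc4a4 for Cyr61 (r = 0.987) and Mroh1 for Amotl2 (r = 0.992). For the regulators they were Coa3 for Yap1 (r = 0.989), Ermp1 for Wwtr1 (r = 0.997), Phldb1 for Tead1 (r = 0.997), Pign for Lats1 (r = 0.985) and Tatdn2 for Lats2 (r = 0.968). None of the 10 nearest genes belongs to the other pathway lists. Those lists were a small part of the candidates, and the level cut left out low genes such as Tead2 and Tgfb2. A miss was therefore likely from the outset. Each r is the highest of 8531 over 6 shared libraries and describes these livers only.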

How the data were processed

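Liver RNA-seq of 6 mice was compared between the vectors named in the sample titles. The authors deposited expected counts per transcript, estimated and not normalized, and FPKM per transcript and gene, scaled by length and mapped fragments. The labels name HISAT2, Bowtie2, RSEM and mm10 without roles or versions, while the study's methods give STAR, HTSeq and DESeq2. Expected counts were summed per NCBI gene ID and rounded. The main test was edgeR 4.0.16 (quasi-likelihood, TMM, filterByExpr, vector as the only factor) in R 4.3.3, with SE from the quasi-F statistic. Exact permutation tests used SciPy. The main edgeR test was tried on simulated counts with known changes.

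Alternatives were DESeq2 1.42.0, RLE or upper quartile normalization, no filter, a minimum of 10 counts per library, a replicate block, library name form as covariate, limma 3.58.1 on log2(FPKM + 1) or log2(FPKM + 0.1) with FPKM of at least 0.5 in 3 libraries, log2(FPKM + 1) unfiltered, a 1.5-fold threshold, and each liver left out in turn. Named were the 10 genes, Mettl14, genes called in the other pathway lists (at most 8 per list) and the most alike gene of each. Dock5, Limd1, other uncalled list genes and single cell type markers were named after their values were seen. Beside the 8 cholangiocyte markers summed, 1 further marker is not reported here. A sum of stellate cell markers without collagens was added after the data were seen. The 10 genes and all lists were chosen with earlier results of these data known. Gene names and coordinates came from RefSeq tables of GRCm38.p6, the build that mm10 denotes. The p-values weigh each difference against the variation between these livers, 3 per group.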

Additional observations from a re-analysis of the deposited data

How the results depend on the processing

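The 4 calls among the 10 genes became 2 when at least 10 counts were required in every library, which left 9 genes and removed Ankrd1, and 2 with the replicate block. They ranged from 2 to 4 when 1 liver was left out (2 without GFP2 or without Cre3). Calls by adjusted p-value were 0, against 2 in DESeq2 and a range of 0 to 2 with 1 liver left out (2 without Cre1). Over all genes, DESeq2 called 1157 of 18419 by adjusted p-value and edgeR without Cre1 928 of 13678. The main fit called 125 of 13431. The 8 upstream and core genes ranged from 5 to 8 with 1 liver left out, with 5 without Cre2, and with the name form as covariate 7 were called higher and 1, Taok3, lower. The 8 further targets became 5 in limma on log2(FPKM + 1) and 5 on log2(FPKM + 0.1), with 13 genes tested, and ranged from 6 to 9 with 1 liver left out. Over all genes, 58.9% of calls were higher in the main fit, 72.3% with upper quartile normalization and 83.7% to 84.7% on FPKM.

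Ankrd1 and Axl were called in every alternative in which they were tested, with adjusted p-values of 0.0023 to 0.23 and 0.013 to 0.27. The filters kept Ankrd1 only through the Cre livers (0.52 to 2.17 FPKM, against 0.05 to 0.19 in the controls). Its calls in the filtered fits are therefore not independent of its level in that group. Of the 17 other pathway genes called higher, 11 were called in every alternative that tested them, and none changed sign. Of these 17, Fjx1, with 3, 6 and 4 counts in the controls, likewise passed the main filter only through the Cre livers.

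Differences that did not pass the test changed sign as follows. Cyr61 was at -0.19 with the name form as covariate and at -0.15 to 0.95 with 1 liver left out. Yap1 was at 0.018 (upper quartile), 0.11 on log2(FPKM + 1) with or without the filter, 0.11 on log2(FPKM + 0.1) and -0.19 to 0.071 with 1 liver left out. Lats2 was at 0.059 (upper quartile), 0.013 (at least 10 counts), 0.14, 0.14 and 0.16 (the FPKM fits) and -0.098 to 0.16 with 1 liver left out. Of the most alike genes, Slc4a4 was at -0.18 and Tatdn2 at -0.053 with the covariate, and they ranged over -0.10 to 0.53 and -0.043 to 0.17 with 1 liver left out. Coa3 was at 0.051 (upper quartile), 0.00437 (at least 10 counts), 0.15, 0.15 and 0.15 (the FPKM fits) and -0.074 to 0.037 with 1 liver left out. The cause was not tested.

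Replicate numbers do not pair the livers: the deviations of same-numbered livers from their group means correlated at 0.00915, -0.263 and 0.209, and Cre1 correlated best with GFP2 (0.309). With the block, Ctgf (1.16, edgeR p-value of 0.073) and Wwtr1 (-0.30, p-value of 0.079) kept differences of about the same size but were not called, and 7 upstream and core genes and 8 further targets were. At this depth, Ankrd1 rests on 2 to 79 counts per liver.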
